A study of Homo sapiens with 6 samples.

Results

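The BH3-only genes encode the cell death proteins that start the mitochondrial pathway of apoptosis. The 8 genes described here, BMF, BCL2L11, BID, BIK, BAD, BBC3, PMAIP1 and HRK, were taken by their symbols from tables of 56638 gene rows, and all 8 were found. Total RNA of SW480, a line grown from a human colorectal tumour, was sequenced in 2 groups with 3 libraries each. The TGFB1 libraries came from cells given TGF-β1 repeatedly at 10 ng/ml, and the control libraries from cells left without it. All libraries were labelled passage 16 to 19 of the same line, and the labels do not say whether each library stands for its own culture, so the p-values speak of the spread between these libraries alone, which may be technical. The comparison asks how these genes stood in cells exposed to the cytokine, against cells that were not.

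BH3-only proteins share 1 short helix, the BH3 domain, with the rest of the BCL2 family. With it they occupy the groove of survival proteins such as BCL2 and MCL1, and some of them also switch on BAX and BAK1, which open the outer mitochondrial membrane. Their activity is set at several levels. BBC3 (PUMA) and PMAIP1 (NOXA) are induced by cell stress, BCL2L11 (BIM) is a target of FOXO factors, BMF and BCL2L11 proteins can be held on motor complexes by dynein light chains, BAD is held by 14-3-3 proteins, and BID is cut by caspase 8. TGF-β is known to raise BMF and BCL2L11 transcripts in several epithelial cell types.

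With TGF-β1, 5 of the 8 genes rose and 1 fell, while BIK and BAD did not pass the test. BMF had one of the steepest rises of the whole table, with almost no reads in control cells, while the other changes stayed below 2-fold. BCL2L11, BBC3, BID and PMAIP1 were the other genes that rose, by 1.35-fold to 1.76-fold, and HRK was the gene that fell. Calls rest on the quasi-likelihood test of edgeR, adjusted by Benjamini-Hochberg over all 14897 genes tested, at an adjusted p below 0.05. Changes were common in these libraries: 47.3% of all tested genes were called, 23.4% as higher and 23.9% as lower. BMF passed the filter on low counts through the TGFB1 libraries alone, which fixed its direction, and of the other 7 genes 4 rose. The median log2 fold change was 0.48 over the 8 genes and close to 0, at 0.00033, over all tested genes.

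**Figure D1:**
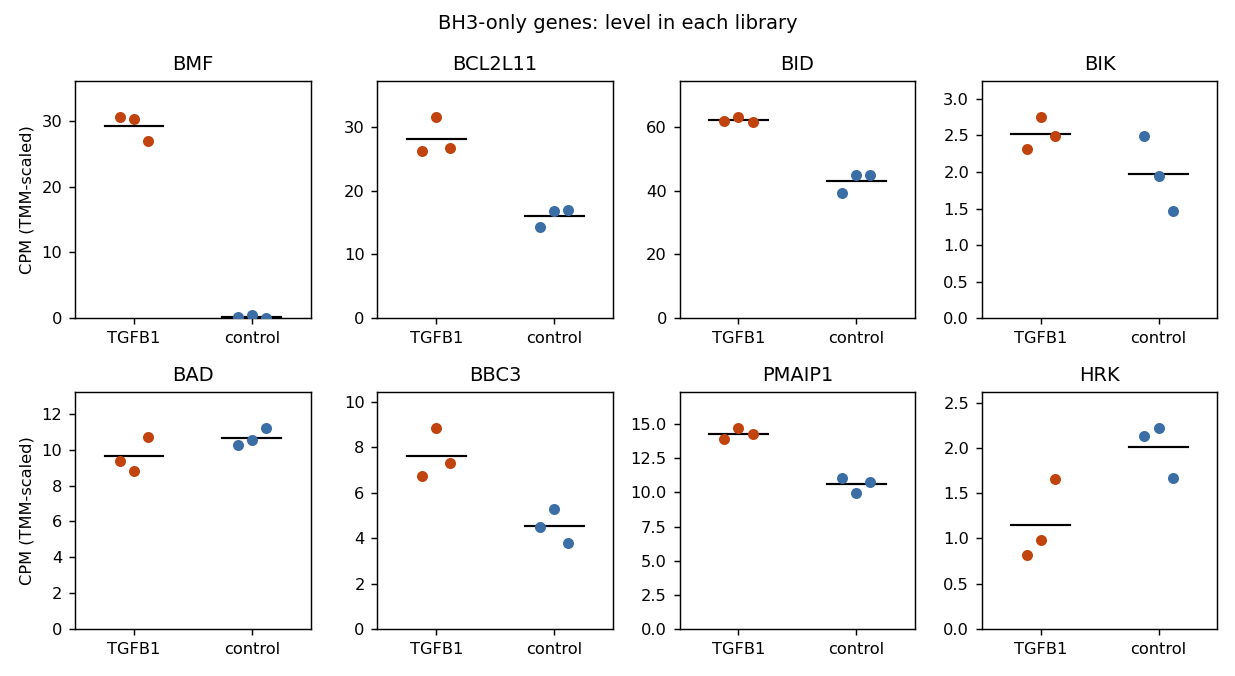
Level of each BH3-only gene in each library, in CPM, with 3 TGFB1 libraries left and 3 control libraries right in each panel; horizontal lines are group means and every axis starts at 0. In BMF, BCL2L11, BID, BBC3 and PMAIP1 all TGFB1 points lie above all control points, in HRK below them, and in BIK and BAD the groups overlap.

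The libraries held 13012898 to 16005222 counts in genes, and 1 count corresponded to 0.0611 to 0.0755 CPM (a gene's reads over its library's total, the total being adjusted by TMM, edgeR's correction for composition). All 10 listed TGF-β response genes, which include SMAD7 and PMEPA1, were higher in the TGFB1 libraries, as were 23.4% of all tested genes. That list was chosen with earlier results of these data known. The identity of the line was taken from its label and was not tested. Most colon epithelial markers did not bear out that label. Of 10 listed, 6 had too few counts to be tested and 4 had enough. Of these KRT18, EPCAM and CDH1 were lower with TGF-β1, with log2 fold changes of −0.55, −0.79 and −1.98 (edgeR adjusted p = 1.73e-10, 0.000246 and 0.00061), and KRT8 did not pass, at 1678 CPM in TGFB1 libraries and 1711 CPM in control libraries. CDH1 had 12 counts in the TGFB1 group and 47 in the control group. It passed the filter on low counts through the control libraries alone, which fixed its direction. CDX2 had 0 counts in all libraries, and VIL1, CDH17, CDX1, KRT19 and KRT20 had 7 or fewer counts per group. The summed level of this list, most of it KRT8, was 1781 to 1824 CPM in TGFB1 libraries and 1897 to 1911 CPM in control libraries. Of 10 fibroblast markers 5 were tested and all 5 were higher, while 23.4% of all tested genes were. List sums were 121 to 137 CPM in TGFB1 and 91.0 to 95.1 CPM in control libraries. COL1A1 made up most of them, at 105 and 81.3 CPM in the same order. PDGFRB had 14.8 and 7.99 CPM, and DCN had 7.54 and 3.37 CPM. FAP had 51 and 1 counts per group and THY1 had 52 and 23. Both passed the filter on low counts only with the TGFB1 libraries, which fixed the direction of FAP and favoured a rise of THY1. Of the 5 not tested, PDGFRA had 1 and 0 counts per group, COL1A2 had 2 and 0, COL3A1 had 3 and 0, LUM had 3 and 9, and COL6A3 had 23 and 1. Sums of 6 immune markers were 1.63 to 3.06 CPM in TGFB1 and 2.01 to 2.13 CPM in control libraries, with PTPRC at 0 counts. Those of 4 endothelial markers were 0.377 to 0.883 CPM and 2.64 to 3.27 CPM in the same order, with PECAM1 and KDR at 0. VWF, the 1 endothelial marker tested, had 23 and 115 counts per group (log2 fold change −2.35, edgeR adjusted p = 4.23e-07). It passed the filter on low counts only with the control libraries, which favoured a fall. The part of these markers in the results below was not tested. In bulk RNA, fewer cells expressing a gene and less RNA of it per cell cannot be told apart.

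BMF (BCL2 modifying factor) is a BH3-only protein that senses loss of attachment and damage to the actin cytoskeleton. It had 30.6, 30.4 and 26.9 CPM in the TGFB1 libraries, against 0.147, 0.416 and 0 CPM in the control libraries. These are 450, 497 and 357 reads with TGF-β1, and 2, 6 and 0 reads without it. The groups are far apart, and every control library lies at a level set by a handful of reads. Over the groups, 1304 reads stood against 8, a ratio of 158 after scaling with an exact 95% counting interval of 80.0 to 367, which covers counting error only. The fitted log2 fold change was 7.24 ± 0.23 (SE, edgeR adjusted p = 4.06e-20), the 11th largest rise among the 14897 genes. The SE of edgeR understates the uncertainty of this change, for which DESeq2 gave 7.30 ± 0.52. The size of the change rests on the few control reads. The log2 fold change was 8.54 without control library 2, which holds 6 of them, and 6.63 without control library 3, which holds 0. Both values lie outside the edgeR 95% interval of 6.76 to 7.71. The call held in both cases (edgeR adjusted p = 3.10e-25 and 1.14e-16). The filter on low counts had fixed the direction of BMF, so these calls add no support for a rise.

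RefSeq places the start of BMF at 2 positions, and the windows from 250 bases before to 50 bases after each are shown because BMF is the gene that changed most. The windows come from RefSeq on build GRCh38.p14, on the minus strand, printed 5′ to 3′, while the submitters’ processing notes name older builds for the counts. The first, the more upstream one, spans chr15:40108830-40109129 and the second spans chr15:40106917-40107216. Capitals mark matches to CAGAC, the core of the SMAD binding element, to GGCGC, a GC-rich SMAD motif, to GTAAACA, a forkhead motif bound by FOXO factors, or to CACGTG, an E-box, on either strand.
BMF upstream start: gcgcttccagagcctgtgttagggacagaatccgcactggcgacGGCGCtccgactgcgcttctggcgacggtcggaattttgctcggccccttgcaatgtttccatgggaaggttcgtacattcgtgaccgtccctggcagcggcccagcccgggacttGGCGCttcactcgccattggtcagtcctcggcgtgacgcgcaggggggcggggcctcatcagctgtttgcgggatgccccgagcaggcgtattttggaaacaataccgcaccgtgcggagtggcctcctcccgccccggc
BMF downstream start: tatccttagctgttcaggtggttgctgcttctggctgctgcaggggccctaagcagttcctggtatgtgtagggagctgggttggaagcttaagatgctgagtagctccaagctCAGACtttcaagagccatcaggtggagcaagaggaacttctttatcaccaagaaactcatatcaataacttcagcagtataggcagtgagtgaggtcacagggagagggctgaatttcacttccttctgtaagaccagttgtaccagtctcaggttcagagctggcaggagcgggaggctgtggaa
The upstream window, with 65.0% G and C, held 2 matches to GGCGC, at 206 and 90 bases before the start, and none to CAGAC. The downstream window, with 50.3% G and C, held 1 match to CAGAC, 136 bases before the start. Neither holds GTAAACA or CACGTG. Short motifs are frequent: of 34943 RefSeq windows of this length, 45.3% hold CAGAC, 48.5% hold GGCGC, 3.42% hold GTAAACA and 7.23% hold CACGTG. A match describes letters and is no evidence of binding, and which start the reads came from cannot be read from counts per gene.

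BCL2L11 encodes BIM, a potent activator that binds all the main survival proteins and can engage BAX directly. Its levels were 26.3, 31.5 and 26.7 CPM in TGFB1 libraries and 14.3, 16.8 and 17.0 CPM in control libraries. The groups do not overlap, and the lowest TGFB1 library is well above the highest control library. Means were 28.2 ± 2.91 CPM with TGF-β1 and 16.0 ± 1.5 CPM without it (SD, n = 3 each). The log2 fold change was 0.81 ± 0.09 (edgeR adjusted p = 1.97e-08), a 1.76-fold rise. Together with BMF it was 1 of the 2 members whose rise also passed a test against a 1.5-fold change (edgeR adjusted p = 0.0227), a test added with the data in view, which 6.1% of all genes passed upward and 4.95% downward, with 0 members downward. On the opposite strand, 727 of the 6658 exon bases of BCL2L11 in GENCODE 29 overlap the long noncoding gene MIR4435-2HG, which the tables list as MIR4435-1HG. That gene was also higher, at 64.9 ± 5.15 CPM in TGFB1 libraries and 37.4 ± 2.17 CPM in control libraries (1.73-fold, edgeR adjusted p = 1.14e-10). The sources used here do not give the strand setting of the counting, so reads of the pair cannot be told apart where they overlap.

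The single RefSeq window of BCL2L11, chr2:111120664-111120963 on the plus strand of GRCh38.p14, is shown beside those of BMF because it holds the forkhead motif that few windows hold, with capitals as above.
BCL2L11 start: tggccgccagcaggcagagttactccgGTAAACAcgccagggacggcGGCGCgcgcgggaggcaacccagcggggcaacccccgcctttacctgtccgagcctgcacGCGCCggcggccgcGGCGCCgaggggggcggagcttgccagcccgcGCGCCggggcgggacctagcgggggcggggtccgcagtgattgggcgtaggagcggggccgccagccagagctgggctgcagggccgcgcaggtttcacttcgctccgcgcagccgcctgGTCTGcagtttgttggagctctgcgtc
It held GTAAACA 1 time, 223 bases before the start, GGCGC 5 times with overlaps counted, and CAGAC 1 time, 23 bases after the start. Among the other members with a RefSeq window, none held GTAAACA. Windows of BID, BBC3 and PMAIP1 also held the CAGAC core, and those of HRK and BAD did not. Windows of BID, PMAIP1 and HRK held the GGCGC motif, and those of BBC3 and BAD did not. CACGTG was found in windows of BID and BBC3, and not in those of BCL2L11, PMAIP1, HRK and BAD. BID has 5 windows, which overlap in part, so the shares per window given above do not apply to it as a gene. In all, 7 of the 8 members had a window.

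BID links death receptors to mitochondria, since its truncated form made by caspase 8 activates BAX and BAK1. It was the most abundant member per length in both groups. BID had 61.8, 63.0 and 61.5 CPM in TGFB1 libraries and 39.1, 44.8 and 44.8 CPM in control libraries. The TGFB1 libraries are almost level with each other, and all of them stand above the control libraries. The log2 fold change was 0.53 ± 0.07, a 1.45-fold rise (edgeR adjusted p = 8.28e-08).

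BBC3 encodes PUMA, which binds every main survival protein, and PMAIP1 encodes NOXA, which prefers MCL1. BBC3 had 6.73, 8.86 and 7.32 CPM in TGFB1 libraries and 4.48, 5.27 and 3.81 CPM in control libraries. The TGFB1 libraries are higher throughout, with a spread of 1.10 CPM (SD) against 0.735 CPM in control libraries. The log2 fold change was 0.76 ± 0.16 (1.70-fold, edgeR adjusted p = 0.000194). PMAIP1 had 13.9, 14.7 and 14.3 CPM in TGFB1 libraries and 11.1, 9.92 and 10.8 CPM in control libraries. Its groups are tight and separate, at 14.3 ± 0.401 CPM with TGF-β1 and 10.6 ± 0.599 CPM without it. This 1.35-fold rise, 0.44 ± 0.10 on the log2 scale, was the smallest that passed among the members (edgeR adjusted p = 0.000921).

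HRK (harakiri) is a BH3-only protein known mainly from neurons. It had 0.815, 0.978 and 1.66 CPM in TGFB1 libraries and 2.13, 2.22 and 1.67 CPM in control libraries. The groups only just separate, since TGFB1 library 3 and control library 3 are almost level at 22 and 25 reads. The log2 fold change was −0.82 ± 0.29, a 1.76-fold fall (edgeR adjusted p = 0.0223), on 50 reads in all TGFB1 libraries and 86 in all control libraries. This call is fragile. It ended when control library 1 or 2 was left out (edgeR adjusted p = 0.0632 and 0.0714), and when TGFB1 library 1 or 2 was (edgeR adjusted p = 0.118 and 0.0811). DESeq2 did not call it either (adjusted p = 0.137).

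BIK and BAD did not pass. BIK, a BH3-only protein of the endoplasmic reticulum, had 2.31, 2.75 and 2.49 CPM in TGFB1 libraries and 2.50, 1.94 and 1.47 CPM in control libraries. Control library 1 lies inside the TGFB1 range. The 95% interval of its log2 fold change ran from −0.12 to 0.85 around 0.37 (edgeR adjusted p = 0.218), so a rise as large as that of BBC3 lies within it. BAD, which couples growth factor signalling to survival, had 9.38, 8.80 and 10.7 CPM in TGFB1 libraries and 10.3, 10.5 and 11.2 CPM in control libraries. The ranges overlap, and the 95% interval from −0.40 to 0.08 around −0.16 (edgeR adjusted p = 0.281) lies below the fitted rise of each of the 5 higher members. In GENCODE 29, 404 of 1708 exon bases of BAD overlap GPR137 on the opposite strand, which fell to 34.5 ± 0.133 CPM with TGF-β1, against 42.8 ± 1.39 CPM without it (edgeR adjusted p = 0.000295). BMF shares 461 of 5447 exon bases with BMF-AS1 on the opposite strand, whose level is not given here. Reads of BMF and BMF-AS1 cannot be told apart where they overlap, since the strand setting is not known.

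**Figure D2:**
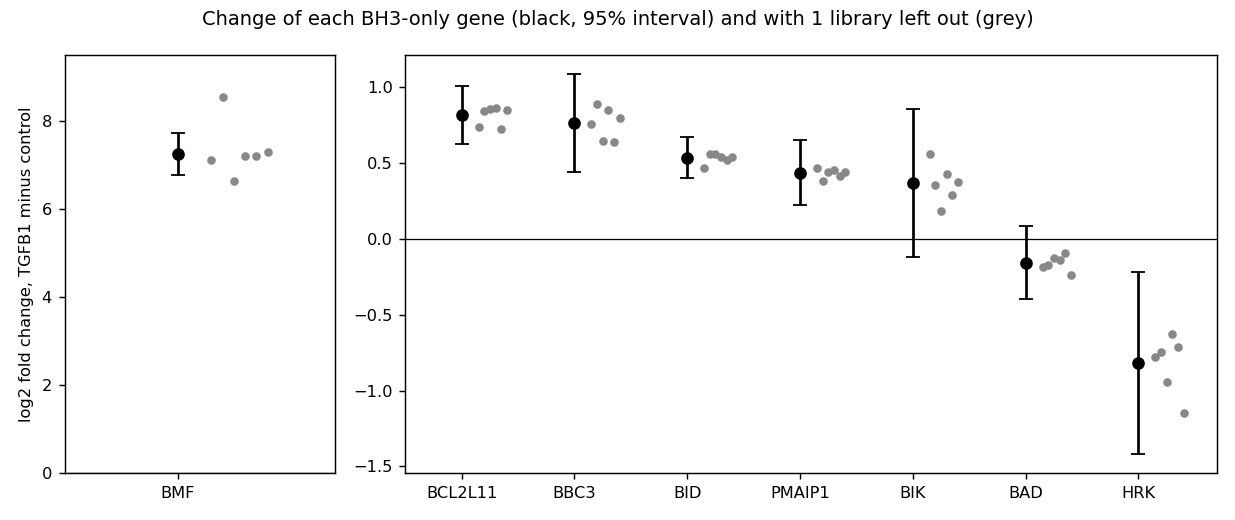
Log2 fold change of each BH3-only gene, TGFB1 minus control, with its 95% interval in black and the 6 values with 1 library left out in grey; BMF has its own axis. BMF lies at 7.24 with left-out values of 6.63 to 8.54, which reach beyond its black interval, too narrow for so few control reads. The intervals of BIK and BAD include 0, and that of HRK runs from −1.42 to −0.22.

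The 2 groups of libraries did not overlap in 6 of the 8 genes, 5 with TGFB1 above and 1 with TGFB1 below. The 5 include BMF, whose direction the filter on low counts had fixed. Over all tested genes 54.2% did not overlap, 27% with TGFB1 above and 27.3% with TGFB1 below. By absolute log2 fold change BMF stood at the 99.9th percentile of tested genes, HRK at 87.3, BCL2L11 at 87.2, BBC3 at 85.8, BID at 77.4, PMAIP1 at 71.5, BIK at 65.9 and BAD at 37.0.

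**Figure D3:**
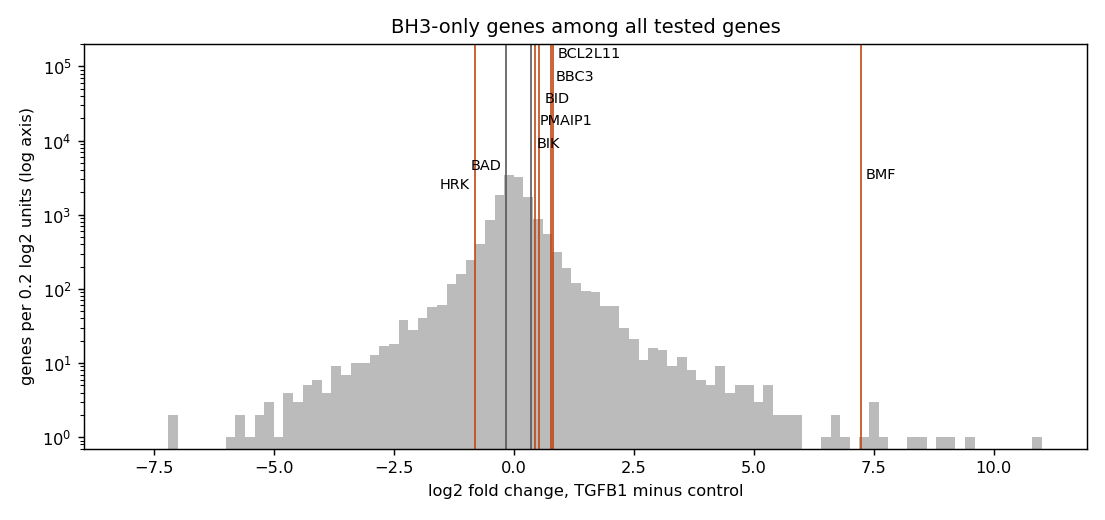
Distribution of log2 fold changes, TGFB1 minus control, over the 14897 tested genes (grey bars, log axis) with the BH3-only genes as vertical lines, orange where called and dark grey where not. BMF lies far in the right tail at 7.24, where 10 genes lie further out, and the other members lie between −0.82 and 0.81, near the bulk of the genes.

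Levels of different genes were compared as CPM per kilobase of exon, with exon lengths from GENCODE 29. In TGFB1 libraries the order was BID at 13.97 ± 0.178, PMAIP1 at 6.40 ± 0.179, BAD at 5.64 ± 0.576, BMF at 5.38 ± 0.375, BCL2L11 at 4.23 ± 0.437, BIK at 2.64 ± 0.232, BBC3 at 2.40 ± 0.346 and HRK at 0.168 ± 0.0654 CPM per kilobase (SD, n = 3). Of these neighbours PMAIP1 and BAD, BAD and BMF, and BIK and BBC3 overlap between libraries. In control libraries the order was BID at 9.65 ± 0.733, BAD at 6.25 ± 0.283, PMAIP1 at 4.74 ± 0.268, BCL2L11 at 2.41 ± 0.226, BIK at 2.07 ± 0.540, BBC3 at 1.42 ± 0.231, HRK at 0.293 ± 0.0431 and BMF last, at 0.0345 ± 0.0388 CPM per kilobase. There BCL2L11 overlaps BIK and BIK overlaps BBC3. BMF thus stood 4th of the 8 with TGF-β1 and 8th without it.

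The summed level per length of the 8 genes was 40.8 ± 1.11 CPM per kilobase in TGFB1 libraries and 26.9 ± 0.515 in control libraries. The libraries ranged from 39.9 to 42.0 with TGF-β1 and from 26.3 to 27.3 without it. BMF made up 13.2% of the sum with TGF-β1 and 0.128% without it, and 38.3% of the difference between the groups. Without BMF, the sum of the other 7 was 35.5 CPM per kilobase with TGF-β1 and 26.8 without it, a ratio of 1.32. With the longest transcript of each gene as its length, BAD stood above PMAIP1 and BBC3 above BIK in TGFB1 libraries, and BBC3 also stood above BIK in control libraries, while BMF kept the 4th and 8th places.

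**Figure D4:**
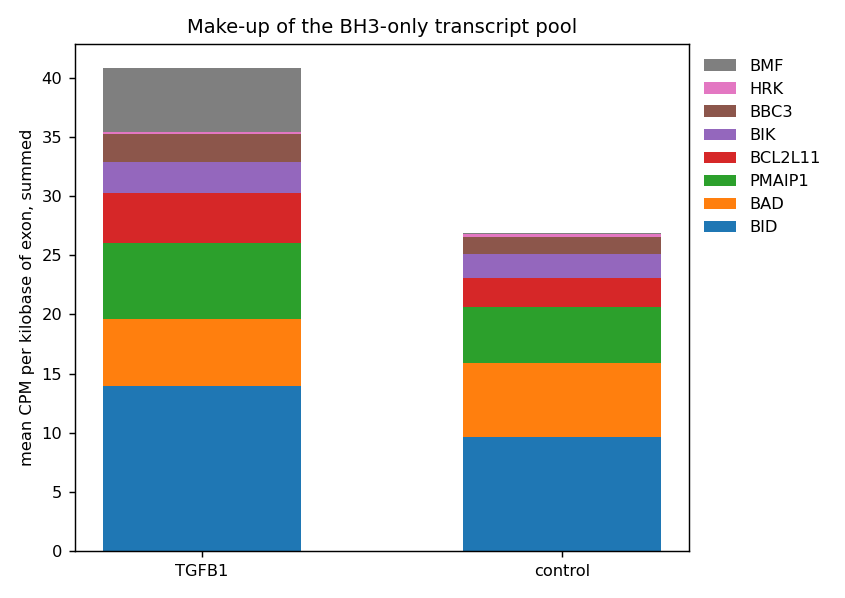
Mean level per kilobase of exon of the 8 BH3-only genes, stacked, in TGFB1 libraries (left) and control libraries (right); the axis starts at 0. The stack reaches 40.8 with TGF-β1 and 26.9 without it, and the BMF segment, 5.38 CPM per kilobase with TGF-β1, is too thin to see in control libraries.

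The survival proteins that BH3-only proteins bind changed in both directions. Of 6 listed genes 4 were tested, of which 1 was higher and 3 were lower, with a median log2 fold change of −0.26. Among all tested genes 23.4% were higher and 23.9% lower. MCL1, the partner preferred by NOXA, averaged 365 ± 3.39 CPM in TGFB1 libraries and 275 ± 8.29 CPM in control libraries (1.33-fold higher, edgeR adjusted p = 1.64e-08). BCL2 fell to 1.69 ± 0.433 CPM with TGF-β1, against 5.36 ± 0.510 CPM without it (3.13-fold lower, edgeR adjusted p = 1.28e-07). BCL2L1 (BCL-XL) and BCL2L2 (BCL-W) had log2 fold changes of −0.24 and −0.28, both past the test (edgeR adjusted p = 0.00106 and 0.00429). BCL2A1 had 0 counts in every library and BCL2L10 had 1 count in each group. Summed per kilobase, the 6 survival genes stood at 123 ± 2.91 CPM per kilobase in TGFB1 libraries and 109 ± 0.766 in control libraries, above the BH3-only sum in both groups, and MCL1 held 68.3% of that sum with TGF-β1 and 57.6% without it.

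Among the pore-forming effectors BOK rose and BAX and BAK1 did not pass. BOK, which can act without BH3-only activators, averaged 16.8 ± 0.603 CPM with TGF-β1 and 8.12 ± 0.972 CPM without it (2.06-fold, edgeR adjusted p = 5.03e-09). BAX had 37.2 ± 4.57 CPM in TGFB1 libraries and 38.3 ± 1.22 CPM in control libraries, with a 95% interval of −0.20 to 0.11 for its log2 fold change. BAK1 had 32.8 ± 1.75 CPM and 31.1 ± 0.269 CPM in the same order, with an interval of −0.07 to 0.22. BOK, BAK1, BCL2L1 and BCL2L2 also share exon bases with other GENCODE 29 genes, so their levels are uncertain where strand and overlap decided the count.

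Among 9 listed atypical proteins with a BH3-like motif 8 were tested, of which 3 were lower and 5 did not pass (median log2 fold change 0.04), and with scaling by library size alone 3 were higher and 2 lower. BNIP3, a mitophagy receptor, fell to 14.5 ± 0.111 CPM with TGF-β1, against 26.1 ± 1.76 CPM without it (edgeR adjusted p = 2.99e-09). BCL2L15 fell by 0.74 on the log2 scale (edgeR adjusted p = 0.00108). HUWE1, the ubiquitin ligase of MCL1 known as MULE, was at the threshold (log2 fold change −0.15, edgeR adjusted p = 0.0489), and DESeq2 did not call it (adjusted p = 0.0638). BECN1, the autophagy protein beclin 1, averaged 47.3 ± 2.37 CPM with TGF-β1 and 43.4 ± 1.95 CPM without it (edgeR adjusted p = 0.137), and passed with library size scaling (edgeR adjusted p = 0.0286).

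The list of proteins that hold, cut or mark BH3-only proteins, with TRIM17 acting on MCL1 instead, had 17 genes, of which 16 were tested. Of these 4 were higher, 5 were lower and 7 did not pass (median log2 fold change −0.04). The shares over all tested genes were 23.4% higher and 23.9% lower. DYNLL1, DYNLL2 and CASP8 were singled out after their values were seen, and none passed. DYNLL1, the chain that holds BIM, had 289.8 ± 20.1 CPM in TGFB1 libraries and 305 ± 15.6 CPM in control libraries, and DYNLL2, the chain that holds BMF, had 73.4 ± 4.99 CPM and 75.0 ± 0.585 CPM in the same order. CASP8, the protease that cuts BID, had 38.5 ± 0.805 CPM with TGF-β1 and 40.6 ± 5.29 CPM without it (edgeR adjusted p = 0.434). The lowest p-values of the list belonged to genes that were lower. BTRC, a ubiquitin ligase subunit that marks phosphorylated BIM, fell by 0.66 on the log2 scale (edgeR adjusted p = 1.70e-08). RPS6KA1 and PIM3, kinases that phosphorylate BAD, had log2 fold changes of −0.43 and −0.37 (edgeR adjusted p = 9.01e-08 and 9.13e-06). TRIM17, a ubiquitin ligase of MCL1 in neurons, fell to 3.41 ± 0.674 CPM with TGF-β1, against 6.91 ± 1.08 CPM without it (edgeR adjusted p = 1.90e-05).

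Transcription factors known to act on BH3-only genes were higher in 8 of 16 tested, lower in 4 and did not pass in 4 (median log2 fold change 0.18). Over all tested genes 23.4% were higher and 23.9% lower. JUN, an AP-1 subunit linked to BIM and HRK induction in neurons, rose to 127 ± 3.62 CPM with TGF-β1, against 29.9 ± 2.86 CPM without it (edgeR adjusted p = 1.59e-20). RUNX1 rose 2.55-fold (edgeR adjusted p = 3.62e-15). SNAI2, a repressor of BBC3 in blood progenitors, rose 2.32-fold (edgeR adjusted p = 1.17e-09). BBC3 was higher in the same libraries, and a link between these genes was not tested. SMAD2, a receptor-activated SMAD, fell to 85.6 ± 3.17 CPM with TGF-β1, against 141 ± 2.48 CPM without it (edgeR adjusted p = 2.29e-12).

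**Figure D5:**
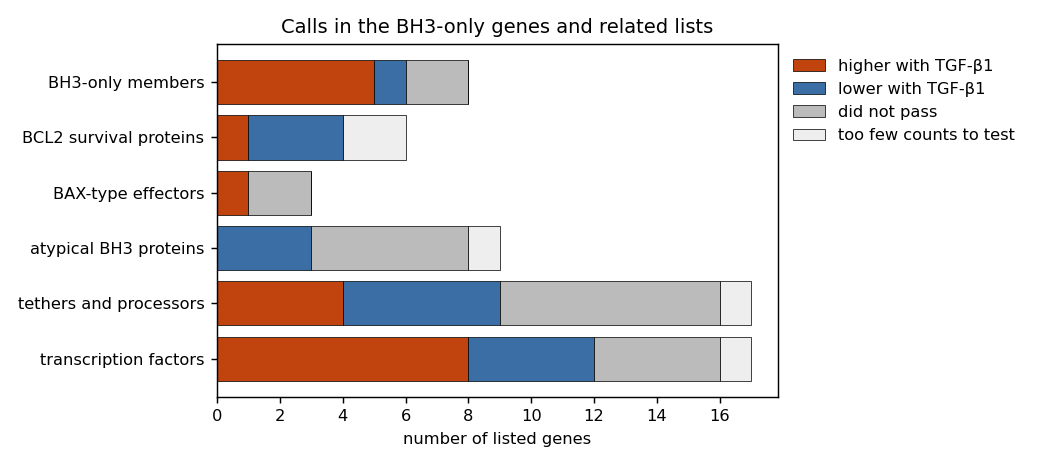
Number of genes called higher (orange) or lower (blue) with TGF-β1, not past the test (grey) or too low to test (white), for the BH3-only genes and 5 related lists. Of the BH3-only genes 5 were higher and 1 lower, of 4 tested survival genes 1 and 3, and of 16 tested transcription factors 8 and 4. Over all tested genes 23.4% were higher and 23.9% lower.

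The genes whose log2 CPM followed a member most closely over the 6 libraries were named among tested genes whose log2 CPM averaged 2 or more, as a description only. For BMF they were FOXL1, MAST2 and JUN, each with Pearson's r above 0.998. Their own changes differed widely, at 1.11, 0.22 and 2.09 on the log2 scale. For BCL2L11, BID, BBC3, PMAIP1 and HRK the closest genes were IP6K2, CTNNBIP1, CALHM2, CLIC4 and NDC1, with r from 0.995 to 0.999. With 6 libraries in 2 separate groups, the points share the difference between the groups, and nothing about shared control follows from such values.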

How the data were processed

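Total RNA from SW480 cells gave 3 TGFB1 and 3 control libraries. The authors deposited whole-number read counts per gene symbol, 1 table per library, as raw values. The builds hg19 and GRCh37, and as tools HTSeq, TopHat and TopHat2 2.0.11, are named without roles, per the submitters' processing notes. The sources used here give no annotation or strand setting. Reads with no feature (5.44% to 5.98%), ambiguous reads (9.01% to 9.43%) and multiply aligned reads (12.0% to 12.5%) stayed out, which lowers overlapping genes. Libraries of the same group differed beyond sampling noise in each pairwise check (chi-square per degree of freedom 1.76 to 4.34).

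Genes passing filterByExpr (minimum count 10) were scaled by TMM and tested with robust glmQLFit and glmQLFTest in edgeR 4.0.16 (R 4.3.3). DESeq2 1.42.0 and limma 3.58.1 were alternatives. SE is the log2 fold change over the root of F. Members, lists and tests were chosen with earlier results of these data known. Up to 4 tested genes with the lowest p were named per list. CCN2 was matched by an older symbol. Some listed genes and 1 list are not reported here. Lengths and overlaps are from GENCODE 29, promoter windows from RefSeq. Protein sequences were not used here.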

Additional observations from a re-analysis of the deposited data

How the results depend on the processing

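The 5 rises (BMF, BCL2L11, BID, BBC3, PMAIP1) kept direction and call under DESeq2, limma-voom, the 3 other scalings, the 2 other filters, the replicate block and each left-out library. In fits with a filter on low counts the direction of BMF was fixed. With 1 library left out, the log2 fold change ran from 6.63 to 8.54 for BMF, 0.72 to 0.86 for BCL2L11, 0.47 to 0.56 for BID, 0.63 to 0.88 for BBC3 and 0.38 to 0.46 for PMAIP1. HRK ran from −1.15 to −0.63 and the count of lower members from 0 to 1, and DESeq2 called 0 lower members (0 at an unadjusted p under 0.05, HRK at −0.81), where edgeR called 1. Against a 1.5-fold change, chosen after the data were seen, 909 genes were higher and 737 lower in the whole table, 2 members were higher and 0 lower (0 at an unadjusted p under 0.05), and BID (0.53), BBC3 (0.76), PMAIP1 (0.44) and HRK (−0.82) lost their call, as the stricter null implies. BAX turned to 0.010 with library size scaling and ran from −0.15 to 0.020 with 1 library left out, never past the threshold. Summed per length, the 8 genes gave 59.2 CPM per kilobase in TGFB1 and 39.8 in control libraries with longest transcripts, chosen after the data were seen, and 26.3 in control libraries with library size scaling. Same-numbered libraries did not deviate together (correlations of 0.03, −0.13 and −0.05), and not every library correlated best with its own number. With the replicate number as a block, 3355 genes were higher and 3420 lower, against 3483 and 3561 without it, and no call of a member changed (BMF at 7.23, HRK at −0.82). For HRK, BIK and control BMF, read counts limit what can be seen.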
